A study of Mus musculus with 16 samples.

Results

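MHC class I molecules show fragments of a cell's own proteins at its surface, where CD8 T cells and NK cells read them. Proteins are cut by the proteasome, and inflammatory signals replace its standard catalytic subunits with the inducible subunits encoded by Psmb8, Psmb9 and Psmb10. The peptides are moved into the endoplasmic reticulum by the TAP transporter (Tap1 and Tap2), loaded with the help of tapasin (Tapbp) onto a heavy chain (H2-K1 or H2-D1) and held there together with β2-microglobulin (B2m), while Nlrc5 is the transactivator that drives transcription of much of this pathway. In the healthy brain most neurons carry little class I protein, and interferons are the best known inducers of these genes. These 10 genes were listed by name for their role, by a rule that holds no measured value, and all 10 were matched by symbol among the 55487 genes of the expression table.

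RNA was sequenced from the cortex of 16 wild-type (WT) male C57Bl6 mice aged 2 months. LPS, a component of the outer membrane of Gram-negative bacteria, was given i.p. at 2 mg/kg on each of 2 consecutive days, at ZT1 (1 hour after lights-on) or at ZT13 (1 hour after lights-off). Control mice received PBS on the same schedule, and the cortex was taken on day 3. By the paper's schedule this was at the same time of day as the injections. There were 3 PBS mice and 5 LPS mice at each time, and the groups follow the sample titles. The comparisons ask how strongly the class I genes responded to LPS and whether that response differed between the times of day. The time of injection and the time of tissue collection cannot be told apart in this design.

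Depth was 20251840 to 29112758 reads on genes per mouse. Neuronal marker RNA (Rbfox3, Snap25, Syt1, Slc17a7, Gad1 and Gad2) summed to 4101 to 4782 CPM (reads on a gene, scaled to a total of 1000000 per mouse) in the 16 mice, and cortical projection neuron markers to 469.7 to 545 CPM. In bulk tissue, more RNA per cell and more cells of a type cannot be told apart. Of 8 T and NK cell markers, Cd3d and Cd3g were at or under 3 reads in every mouse. The others (Cd3e, Cd8a, Cd8b1, Nkg7, Klrb1c and Gzma) passed 3 reads in at least 1 ZT13 LPS mouse. Of 3 B cell markers, Ms4a1 was at or under 3 reads in every mouse, while Cd79a and Cd79b passed 3 reads in at least 1 LPS mouse at each time. All values below are CPM, or differences on the scale of log2(CPM + 0.5), where the added 0.5 understates the change of genes with low CPM.

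Of the 10 genes, 7 lie on chromosome 17 (GENCODE M21 annotation, GRCm38), within the mouse MHC region. They are Tapbp (chr17:33915899-33929292, + strand), H2-K1 (chr17:33996017-34000347, − strand), Psmb9 (chr17:34181987-34187764, − strand), Tap1 (chr17:34187553-34197225, + strand), Psmb8 (chr17:34197721-34201454, + strand), Tap2 (chr17:34203527-34216321, + strand) and H2-D1 (chr17:35262730-35267499, + strand). Tap1 and Psmb8 are separated by 495 bases and Psmb8 and Tap2 by 2072 bases, while Psmb9 and Tap1 point away from each other and share 212 exonic bases on opposite strands. B2m lies on chromosome 2 (chr2:122147686-122153083, + strand), and Psmb10 (chr8:105935735-105938444, − strand) and Nlrc5 (chr8:94434356-94527272, + strand) lie on chromosome 8.

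The promoters of the heavy and light chains are shown because these 3 genes share a known arrangement of regulatory letters. RefSeq promoter sequences (GRCm38.p6, 250 bases before to 50 bases after the start) were found for 8 of the 10 genes, all but Tap2 and Nlrc5. Each line below is a stretch of at most 30 bases, written 5′ to 3′ on the gene's own strand. In the first pair of lines capitals mark a κB-type motif (GGGG, 3 letters that are each A or T, CCCC), the kind to which NF-κB factors bind, and a match to the interferon regulatory factor core AANNGAAA, which here reads on the opposite strand. In the third line capitals mark the same interferon regulatory factor core in B2m. In the last 3 lines capitals mark TGACG, the core of the X2 box, and ATTGG, the Y box CCAAT read on the opposite strand. These boxes belong to the module through which Nlrc5 is recruited by the RFX, CREB and NF-Y factors.
H2-K1 upstream: GGGGATTCCCCatctccacagTTTCACTT
H2-D1 upstream: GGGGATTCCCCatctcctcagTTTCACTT
B2m upstream: AACTGAAAatgggaaagtccctttgtaacc
H2-K1 proximal: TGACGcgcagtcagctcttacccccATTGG
H2-D1 proximal: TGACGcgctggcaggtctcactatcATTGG
B2m proximal: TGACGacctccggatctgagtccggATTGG

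The upstream stretches lie at chr17:34000430-34000458 (− strand), chr17:35262923-35262951 (+ strand) and chr2:122147550-122147579 (+ strand), and the proximal stretches at chr17:34000359-34000388, chr17:35262993-35263022 and chr2:122147609-122147638. Counted from the RefSeq start, the proximal stretch begins at −41 in H2-K1, −101 in H2-D1 and −78 in B2m. From another RefSeq start of H2-K1 the same stretch begins at −55. The H2-D1 stretches fall inside the first exon of a longer GENCODE transcript. An X2 core followed by 20 bases and the inverted Y box, on either strand, stood in 31 of 32851 promoters (0.0944%), and the κB-type motif in 30 of them (0.0913%). The single motifs are common, since the interferon regulatory factor core stood in 23.9% of all promoters, TGACG in 20.8% and CCAAT in 37.4%, both strands searched. None of the other 5 promoters held the κB-type motif, the interferon regulatory factor core or the spaced pair. Only these exact letters were searched, so other forms of the sites were not counted, in B2m or elsewhere. The windows of H2-D1, Tapbp, Psmb8 and Psmb9 lie inside the GENCODE bounds of those genes, so sequence before the GENCODE starts was not searched there. The RefSeq starts of Tap1 and Psmb9 are 226 bases apart, so their windows overlap.

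After LPS, RNA of all 10 class I genes was higher than after PBS at both times, and in each gene every LPS mouse was above every PBS mouse of the same time. At ZT1 the differences ran from 0.59 (Psmb10) to 2.95 (Psmb8) on the log2 scale, and the median was 2.05 for the 10 genes against 0.04 for all 18859 genes tested. At ZT13 they ran from 0.75 (Psmb10) to 3.54 (Psmb8), with a median of 2.25 against 0.05. All 10 passed the test at each time (limma, adjusted p at most 0.00337 at ZT1 and at most 0.00108 at ZT13). Of all genes tested, 11.1% were called higher after LPS at ZT1 and 19.2% at ZT13. Groups without overlap, LPS above PBS, were seen in 15.9% of all genes at ZT1 and in 20.9% at ZT13. Psmb9 and Nlrc5 reached 1 CPM, the level asked of a tested gene in at least 3 mice, in only 1 of the 6 PBS mice each. They were therefore tested because of the LPS mice, and the other 8 genes would have been tested on PBS mice alone.

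**Figure D1:**
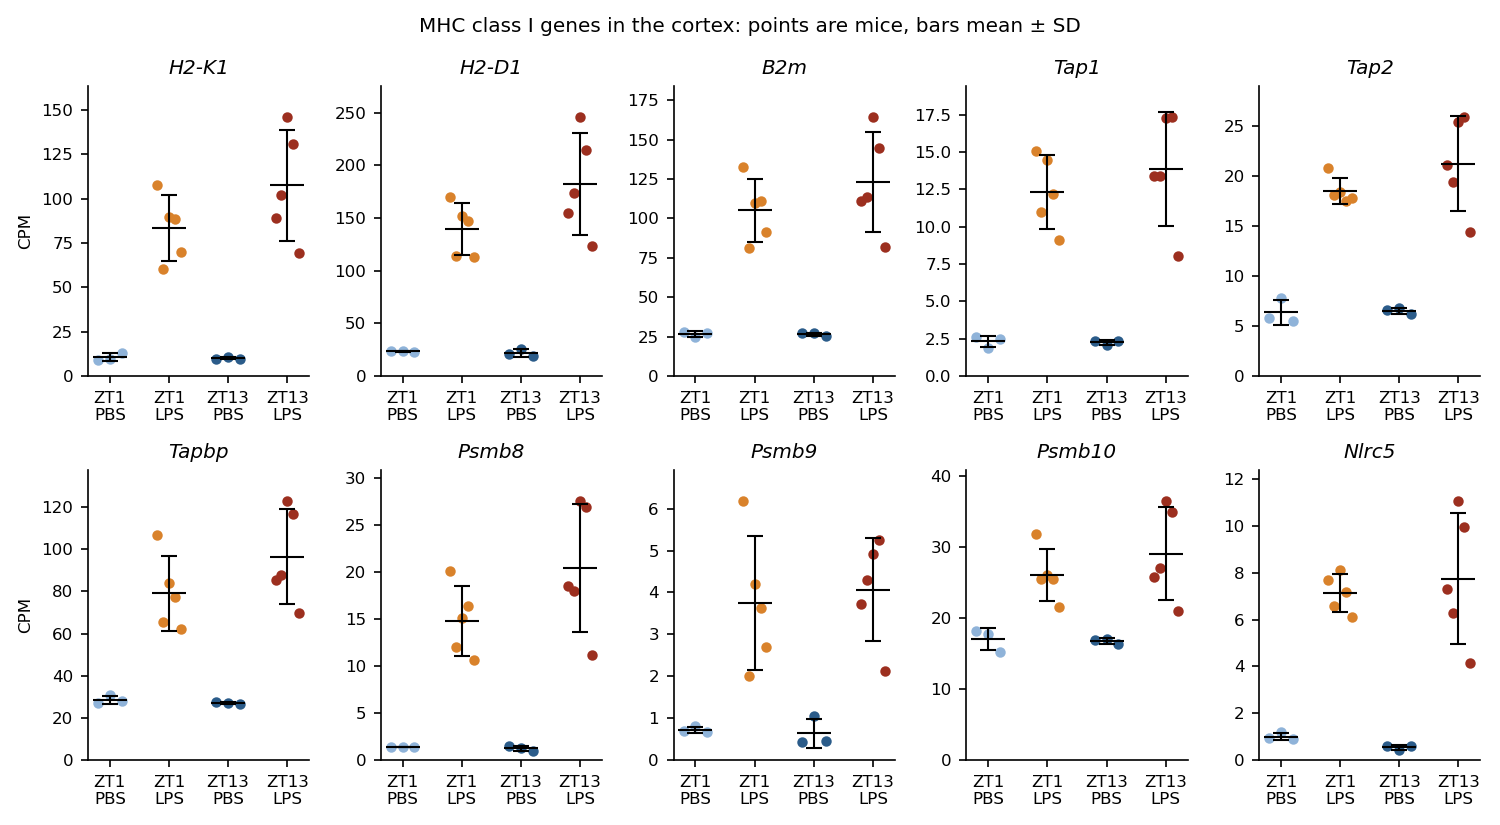
CPM of each of the 10 class I genes (vertical axes, each starting at 0) in the 4 groups. Points are mice and the bars are the mean ± SD of 3 PBS or 5 LPS mice. In every panel the LPS points lie above the PBS points of the same time, and the ZT1 and ZT13 LPS points overlap.

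H2-K1, one of the classical heavy chains that present peptide, was at 8.93, 9.83 and 13.2 CPM in the ZT1 PBS mice and at 108, 60.0, 89.8, 88.6 and 69.95 CPM in the ZT1 LPS mice. The ZT13 PBS mice held 9.75, 10.6 and 9.45 CPM and the ZT13 LPS mice 89.1, 102, 146, 131 and 69.0 CPM. The lowest LPS mouse was thus several times above the highest PBS mouse at either time. H2-K1 rose by 2.90 at ZT1 (SE 0.17, adjusted p = 1.54e-06) and by 3.32 at ZT13 (SE 0.18, adjusted p = 1.08e-08), on the log2 scale.

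H2-D1, the other classical heavy chain, was at 23.3, 24.2 and 22.8 CPM in ZT1 PBS mice and at 169.7, 114, 152, 147 and 113 CPM in ZT1 LPS mice. At ZT13 the PBS mice had 20.53, 25.8 and 19.4 CPM and the LPS mice 155, 174, 246, 214 and 123 CPM. The differences were 2.53 (SE 0.12, adjusted p = 2.91e-07) at ZT1 and 2.997 (SE 0.17, adjusted p = 1.83e-08) at ZT13. Class I heavy chains resemble each other, and of the windows of 75 bases in the transcripts used, 6.90% of those of H2-D1 and 1.55% of those of H2-K1 also occur in other genes, so reads there could have been assigned to a relative.

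B2m, the light chain that every class I heavy chain needs, was at 27.8, 24.8 and 27.4 CPM in ZT1 PBS mice and at 133, 81.1, 109.7, 111 and 91.1 CPM in ZT1 LPS mice. At ZT13 it was at 27.1, 27.0 and 25.4 CPM after PBS and at 111, 114, 164, 145 and 81.8 CPM after LPS. The PBS mice of both times thus lay within a narrow band, and B2m rose by 1.94 (SE 0.13, adjusted p = 2.92e-06) at ZT1 and by 2.15 (SE 0.16, adjusted p = 2.54e-07) at ZT13. The heavy chains had larger differences than the light chain at both times, but B2m was the most abundant of the 10 RNAs per kb in every group.

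Tap1, the first subunit of the peptide transporter, was at 2.61, 1.91 and 2.49 CPM in ZT1 PBS mice and at 15.1, 10.97, 14.4, 12.2 and 9.09 CPM in ZT1 LPS mice. ZT13 PBS mice had 2.37, 2.06 and 2.33 CPM and ZT13 LPS mice 13.4, 13.4, 17.3, 17.3 and 8.04 CPM. Tap1 rose by 2.17 at ZT1 (SE 0.16, adjusted p = 6.39e-06) and by 2.34 at ZT13 (SE 0.19, adjusted p = 7.03e-07). Reads in the 212 bases shared with Psmb9 cannot be told apart between these genes without knowledge of strand.

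Tap2, the partner of Tap1 in the transporter, was at 5.83, 7.78 and 5.47 CPM in ZT1 PBS mice and at 20.8, 18.1, 18.4, 17.5 and 17.8 CPM in ZT1 LPS mice. At ZT13 it was at 6.55, 6.75 and 6.17 CPM after PBS and at 21.0, 19.3, 25.4, 25.9 and 14.4 CPM after LPS. Tap2 rose by 1.48 (SE 0.11, adjusted p = 6.10e-06) and 1.60 (SE 0.15, adjusted p = 2.31e-06), values smaller than those of Tap1, a difference that was not tested. The ZT1 LPS mice differed from each other less in Tap2 than in any of the other 9 genes, with the highest mouse 1.19 times the lowest.

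Tapbp encodes tapasin, which holds the empty heavy chain next to the transporter. It was at 27.1, 30.7 and 27.8 CPM in ZT1 PBS mice and at 107, 65.3, 84.0, 77.1 and 62.2 CPM in ZT1 LPS mice. ZT13 PBS mice had 27.4, 27.0 and 26.6 CPM and ZT13 LPS mice 85.2, 87.7, 123, 117 and 69.7 CPM. Tapbp rose by 1.43 (SE 0.14, adjusted p = 6.44e-05) at ZT1 and by 1.79 (SE 0.14, adjusted p = 4.58e-07) at ZT13. In its annotation 904 exonic bases are shared with Gm19412 on the opposite strand and 149 with Zbtb22 on the same strand.

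Psmb8, the inducible subunit that takes the place of Psmb5, had the largest difference of the 10 genes at both times. It was at 1.43 CPM in each of the 3 ZT1 PBS mice, or 29 to 34 reads, and at 20.1, 11.95, 15.1, 16.3 and 10.6 CPM in the ZT1 LPS mice. ZT13 PBS mice had 1.48, 1.30 and 0.925 CPM and ZT13 LPS mice 18.5, 17.9, 27.5, 26.9 and 11.2 CPM. The differences were 2.95 (SE 0.17, adjusted p = 1.46e-06) and 3.54 (SE 0.23, adjusted p = 7.11e-08), and mean CPM after LPS was 10.3 times that after PBS at ZT1, and 16.5 times at ZT13. It ranked 31st at ZT1 and 39th at ZT13 by log2 difference among the 18859 genes.

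Psmb9, which takes the place of Psmb6, was the lowest of the inducible subunits without LPS. ZT1 PBS mice had 0.696, 0.810 and 0.664 CPM and ZT13 PBS mice 0.440, 1.04 and 0.448 CPM, or 10 to 23 reads in the 6 mice. ZT1 LPS mice had 6.18, 2.01, 4.21, 3.62 and 2.69 CPM and ZT13 LPS mice 3.73, 4.30, 4.93, 5.24 and 2.13 CPM. Psmb9 rose by 1.72 (SE 0.26, adjusted p = 0.00121) and 1.99 (SE 0.25, adjusted p = 3.35e-05), where the ratio of the mean CPM was 5.17 and 6.32. It was the most variable of the 10 genes among the ZT1 LPS mice, with the highest 3.07 times the lowest.

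Psmb10, which takes the place of Psmb7, had the smallest difference of the 10 genes and the highest level without LPS among the inducible subunits. It was at 18.2, 17.7 and 15.2 CPM in ZT1 PBS mice and at 31.9, 25.5, 26.0, 25.6 and 21.6 CPM in ZT1 LPS mice. ZT13 PBS mice had 16.9, 17.02 and 16.3 CPM and ZT13 LPS mice 25.8, 27.1, 36.5, 35.0 and 21.0 CPM. The groups did not overlap, and Psmb10 rose by 0.59 (SE 0.11, adjusted p = 0.00337) and 0.75 (SE 0.14, adjusted p = 0.00108). It ranked 1152nd and 1150th by log2 difference, while the other 9 genes ranked between 31st and 409th.

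Nlrc5, the class I transactivator, was at 0.937, 1.19 and 0.884 CPM in ZT1 PBS mice and at 7.70, 6.58, 8.14, 7.18 and 6.12 CPM in ZT1 LPS mice. ZT13 PBS mice had 0.607, 0.416 and 0.582 CPM, or 9 to 16 reads, and ZT13 LPS mice 7.31, 6.27, 11.1, 9.97 and 4.16 CPM. Nlrc5 rose by 2.35 (SE 0.13, adjusted p = 7.67e-07) at ZT1 and by 2.93 (SE 0.24, adjusted p = 6.41e-07) at ZT13. Mean CPM after LPS was 7.13 times that after PBS for ZT1, and 14.5 times for ZT13, and the LPS means themselves were 7.14 ± 0.82 and 7.76 ± 2.79 CPM (SD, n = 5 each).

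Since each inducible subunit replaces 1 standard subunit, their ratio was taken within each mouse, where the scaling of the library has no part. Per kb of exon, the Psmb8 level was 0.00864 ± 0.00050 of that of Psmb5 (SD, n = 3) in ZT1 PBS mice and 0.0870 ± 0.0210 (SD, n = 5) in ZT1 LPS mice. At ZT13 it was 0.00767 ± 0.00163 after PBS and 0.114 ± 0.038 after LPS. Psmb9 stood at 0.00804 of Psmb6 in ZT1 PBS mice and 0.0382 in ZT1 LPS mice, and at 0.00693 and 0.0401 at ZT13. Psmb10 stood at 0.767 of Psmb7 in ZT1 PBS mice and at 1.05 after LPS, and at 0.753 and 1.15 at ZT13. Per kb, RNA of Psmb8 and Psmb9 was thus far below that of the standard counterpart in every mouse, and that of Psmb10 near it. These ratios depend on the annotated exon length, which is 1705 bases for Psmb10 and 3421 for Psmb7. In CPM, Psmb10 was below Psmb7 in every mouse. Its means were 17.1 against 44.6 CPM in ZT1 PBS mice and 29.1 against 50.7 CPM in ZT13 LPS mice.

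On the log2 scale the Psmb8 to Psmb5 ratio was higher after LPS by 2.92 at ZT1 and 3.38 at ZT13, the Psmb9 to Psmb6 ratio by 1.60 and 1.84, and the Psmb10 to Psmb7 ratio by 0.44 and 0.57. No LPS mouse overlapped a PBS mouse in any of these 6 comparisons. The two-sided exact permutation test gave p = 0.0357 for each, the smallest that 5 against 3 mice allow, and adjusted over the 12 ratio comparisons p = 0.0714, which misses the threshold of 0.05. Between ZT13 and ZT1 the ratios overlapped in LPS mice and in PBS mice, with exact permutation p from 0.238 to 0.8. Psmb5, Psmb6 and Psmb7 themselves lay between 41.1 and 56.5 CPM in all 16 mice.

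**Figure D2:**
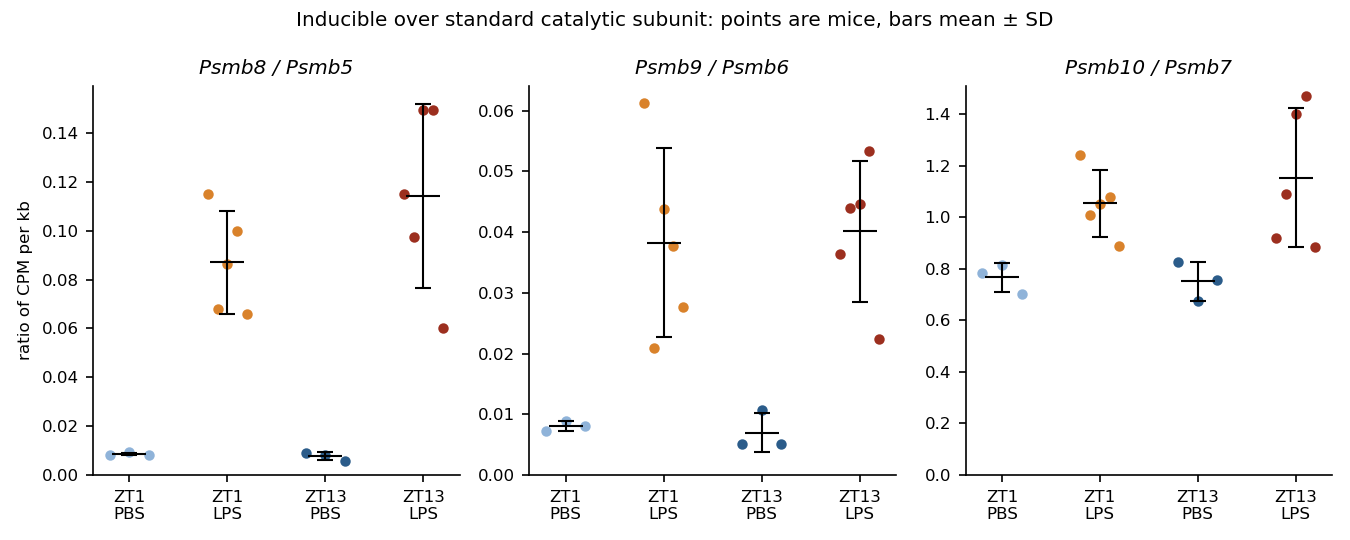
Ratio of each inducible proteasome subunit to the standard subunit it replaces, as CPM per kb of exon (vertical axes start at 0), in the 4 groups. Points are mice and bars the mean ± SD of 3 PBS or 5 LPS mice. The LPS points lie above the PBS points in all 3 panels, and Psmb10 to Psmb7 is the only ratio that reaches 1. The height of each ratio depends on the annotated exon lengths.

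Per kb of exon, the order of the genes in ZT1 PBS mice was B2m (31.0 CPM per kb), Psmb10 (10.003), H2-D1 (9.09), Tapbp (7.87), H2-K1 (3.63), Tap2 (1.68), Tap1 (0.427), Psmb8 (0.423), Psmb9 (0.198) and Nlrc5 (0.118). Psmb10 and H2-D1 overlapped between mice, and so did Tap1 and Psmb8. In ZT13 LPS mice the order was B2m (143 CPM per kb), H2-D1 (70.7), H2-K1 (36.6), Tapbp (26.6), Psmb10 (17.1), Psmb8 (6.03), Tap2 (5.604), Tap1 (2.53), Psmb9 (1.11) and Nlrc5 (0.913). There the neighbours from B2m to Psmb10 overlapped pair by pair between mice, as did Psmb8 with Tap2 and Psmb9 with Nlrc5. The heavy chains thus stood above Psmb10 after LPS, whereas H2-K1 stood below it in PBS mice. These levels depend on the annotated exon length.

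The response to LPS was compared between the times of day in a second step. In the LPS mice the mean of all 10 genes was higher at ZT13 than at ZT1, by 0.05 (Nlrc5) to 0.41 (Psmb8) on the log2 scale, but none passed the test (limma, adjusted p from 0.451 to 0.967), and the ZT13 and ZT1 LPS mice overlapped in all 10. Between these ends lay H2-D1 (0.37), H2-K1 (0.35), Tapbp (0.28), B2m (0.21), Tap2 (0.16), Tap1 (0.14), Psmb9 (0.14) and Psmb10 (0.13). H2-D1 alone had an unadjusted p under 0.05 (0.0441, 95% interval 0.01 to 0.72), and 10.6% of all genes tested had one. The median difference of the 10 genes was 0.19 against 0.01 over all genes. Of all genes tested, 0.0212% were called in this comparison in either direction, and 1.96% did not overlap between the groups. That share was 4 genes and rested on single mice, as 345 genes were called without ZT1 LPS mouse 1, 20 without ZT1 LPS mouse 2, and 0 to 2 without ZT1 LPS mouse 3 or 5 or without any 1 of the ZT13 LPS mice, while none of the 10 class I genes was called in these fits. The 95% intervals of the single genes ran from −0.41 to 0.89, so differences of this size in either direction were not resolved with 5 mice a group.

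The difference between the LPS effects at ZT13 and ZT1, tested as an interaction over all 16 mice, was above 0 in all 10 genes, from 0.12 (Tap2) to 0.58 (Psmb8 and Nlrc5), and 0 of 10 passed the test (adjusted p from 0.58 to 0.914). The others were 0.47 for H2-D1, 0.43 for H2-K1, 0.36 for Tapbp, 0.27 for Psmb9, 0.21 for B2m, 0.17 for Tap1 and 0.16 for Psmb10. None of the 10 had an unadjusted p under 0.05, against 9.25% of all genes, and the smallest were those of Nlrc5 (0.0671) and H2-D1 (0.0683). Over all genes tested 0.159% were called, which is 30 genes, and leaving out single mice gave 7 (without ZT13 PBS mouse 2) to 104 (without ZT1 LPS mouse 1). The 10 genes share their mice, and across the LPS mice of a group they moved together (median r between pairs of genes of 0.875 at ZT1 and 0.971 at ZT13, n = 5 mice each), so their shared sign is not 10 separate observations. In the 3 PBS mice of a group this median was 0.155 at ZT1 and 0.479 at ZT13.

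In PBS mice, which give the level without LPS at each time, 9 of the 10 differences between ZT13 and ZT1 were below 0 and 0 of 10 passed the test, where 0.52% of all genes were called. These were 98 genes, and leaving out single mice gave 12 (without ZT1 PBS mouse 2) to 87 (without ZT13 PBS mouse 3). Excluding Nlrc5, the differences ran from −0.17 (Psmb8) to 0.04 (Tap2), with Psmb9 at −0.14, H2-D1 at −0.10, H2-K1 and Tapbp at −0.08, Tap1 at −0.04, Psmb10 at −0.02 and B2m at −0.01. Nlrc5 was 0.54 lower at ZT13 (SE 0.17, unadjusted p = 0.0096, adjusted p = 0.216), and all 3 ZT13 PBS mice were below all 3 ZT1 PBS mice. Groups without overlap in either direction made up 18.7% of all genes in this comparison, and the exact permutation test gave p = 0.1, the smallest possible for 3 against 3. The counts behind these Nlrc5 values are 9 to 24 reads per mouse. The larger interaction value of Nlrc5 therefore contains this PBS difference, as its difference between the LPS groups was 0.05 (SE 0.20).

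**Figure D3:**
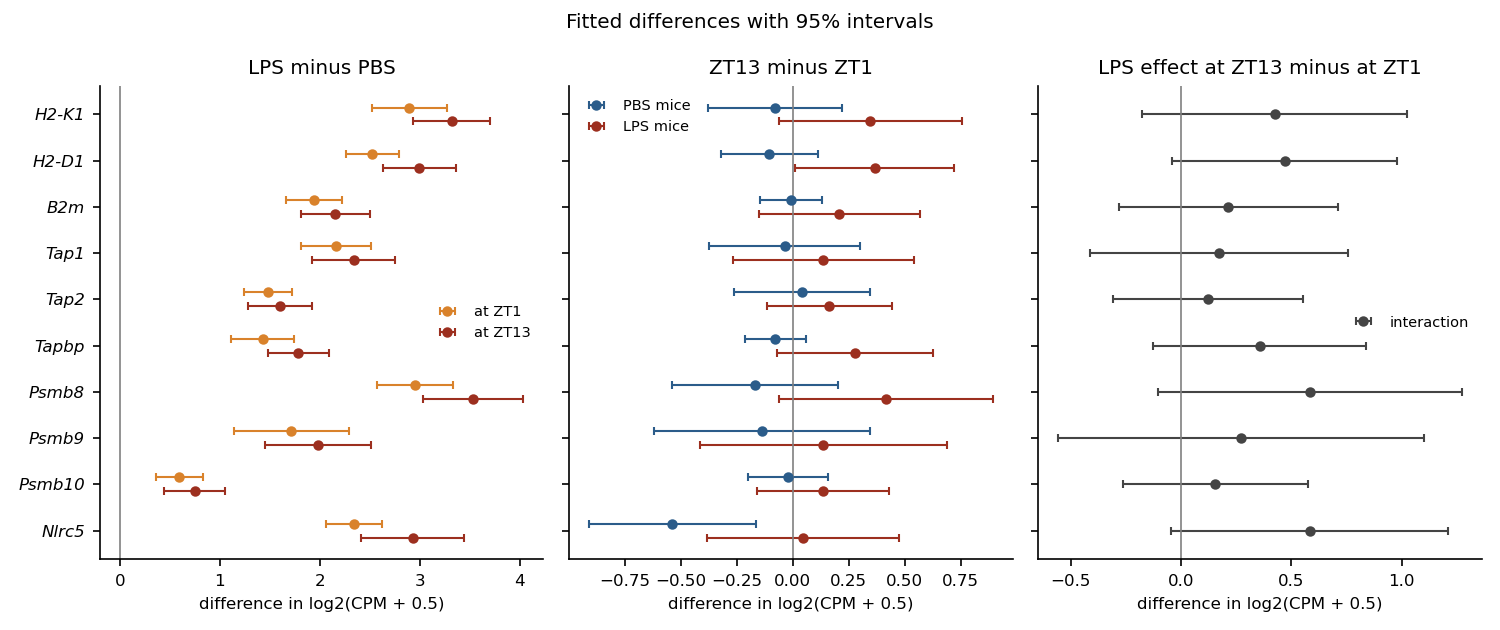
Fitted differences in log2(CPM + 0.5) with 95% intervals for the 10 class I genes. The left panel plots LPS minus PBS at ZT1 and ZT13, where all intervals lie above 0. The middle panel plots ZT13 minus ZT1 in PBS and in LPS mice and the right panel the interaction. There only the intervals of H2-D1 in LPS mice and of Nlrc5 in PBS mice leave out 0, and no gene passed the adjusted test.

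The LPS mice of 1 group differed from each other, and the 10 genes did so together. ZT13 LPS mouse 5 had the lowest value of its group in 10 of 10 genes, on average 0.60 below the group mean on the log2 scale. ZT13 LPS mouse 3 had the highest in 7 genes and mouse 4 in the other 3, on average 0.41 and 0.34 above the mean. At ZT1, LPS mouse 1 had the highest value in 9 of 10 genes, and the lowest was mouse 5 in 6 genes, mouse 2 in 3 and mouse 4 in 1. The highest ZT13 LPS mouse had 1.74 times (Psmb10) to 2.66 times (Nlrc5) the level of the lowest. Among the PBS mice no mouse was highest in more than 6 genes, while ZT13 PBS mouse 3 was lowest in 7.

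Summed markers of several cell types moved with these mice. Neutrophil markers (S100a8, S100a9, Ngp, Camp, Ltf, Retnlg and Mmp8) summed to 57.8, 49.1, 85.4, 85.7 and 32.4 CPM in ZT13 LPS mice 1 to 5, so that mouse 5 was again the lowest and mice 3 and 4 the highest. In ZT1 LPS mice 1 to 5 they summed to 46.4, 10.6, 20.9, 39.7 and 9.43 CPM, with mouse 1 the highest and mice 2 and 5 the lowest. Macrophage and monocyte markers (Mrc1, Lyve1, Ccr2, Ly6c2 and Lyz2) summed to 50.4, 12.9, 29.4, 41.2 and 20.7 CPM in the ZT1 LPS mice and to 43.9, 48.7, 50.7, 53.0 and 31.7 CPM in the ZT13 LPS mice. Lyz2 alone made up most of these sums, with means of 23.5 CPM in ZT1 LPS mice and 36.5 CPM in ZT13 LPS mice. The T and NK cell markers, low in every mouse, summed to 1.77, 0.358, 1.17, 1.33 and 0.453 CPM in the ZT1 LPS mice and to 1.28, 1.80, 2.93, 4.74 and 0.537 CPM in the ZT13 LPS mice, with the same mice at the ends. Microglia markers did not follow this order at ZT13, where they summed to 201.5 CPM in mouse 5 and to 185 and 184 CPM in mice 3 and 4. In ZT1 LPS mice 1 to 5 they summed to 211, 141, 201, 244 and 217 CPM, lowest in mouse 2. Endothelial markers summed there to 237, 173, 226, 241 and 197 CPM. Mural cell markers (Pdgfrb, Rgs5, Kcnj8 and Acta2) summed to 98.4, 77.4, 86.4, 94.0 and 82.9 CPM, so mice 2 and 5 were lowest in both. At ZT13 neither sum was lowest in mouse 5, at 248 CPM for endothelial and 101.5 CPM for mural cell markers. Erythrocyte markers (Hba-a1, Hbb-bs and Alas2) summed to 14.8, 5.66, 18.1, 16.2 and 8.21 CPM in ZT13 LPS mice 1 to 5. They were highest in mice 3 and 4 there, but lowest in mouse 2. In ZT1 LPS mice 1 to 5 they summed to 16.8, 25.3, 7.17, 5.35 and 7.52 CPM, highest in mouse 2. The part of these cells in the class I values was not tested.

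**Figure D4:**
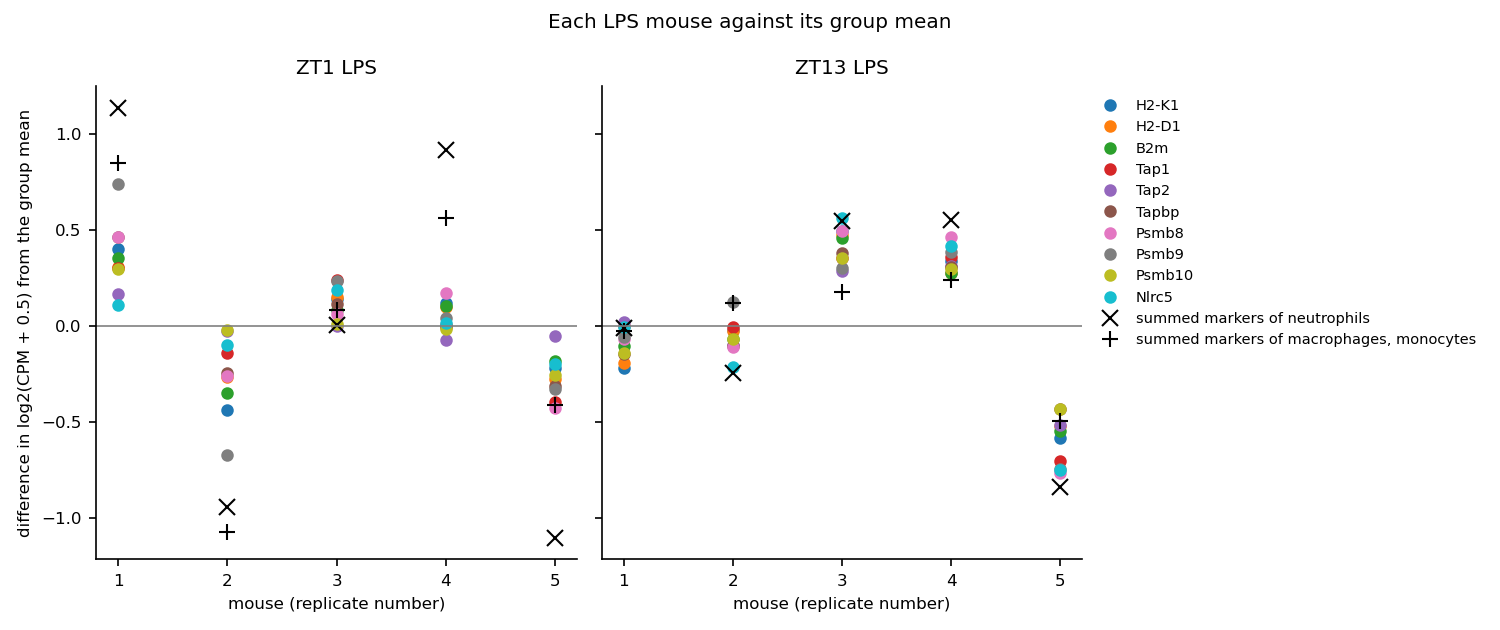
Deviation of each LPS mouse from its group mean in log2(CPM + 0.5) (vertical axis) for the 10 class I genes (coloured points) and for the summed markers of neutrophils (x) and of macrophages and monocytes (+), by mouse number. At ZT13 mouse 5 is below the mean in all 10 genes and mice 3 and 4 are above it, and both marker sums are lowest in mouse 5.

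The same markers also moved with LPS. Counts called below are to be read against the 18859 genes tested, of which 11.1% were called higher at ZT1 and 19.2% at ZT13. Genes called in either direction numbered 3061 at ZT1, 2089 of them higher, and 5401 at ZT13, 3629 of them higher. Neutrophil markers summed to 0.416 to 1.08 CPM in the 6 PBS mice, 9.43 to 46.4 in ZT1 LPS mice and 32.4 to 85.7 in ZT13 LPS mice. The 5 that were tested were at most 0.547 CPM in any PBS mouse and entered the test through the LPS mice, so a count of those called would restate the filter on low values. Macrophage and monocyte markers went from 6.23 to 10.2 CPM in PBS mice to 12.9 to 50.4 at ZT1 and 31.7 to 53.0 at ZT13 after LPS. Of these, Lyz2 rose by 2.76 and 3.83, Mrc1 differed by −0.06 and 0.15 without passing the test, and the other 3 also entered the test through the LPS mice. Microglia markers (P2ry12, Tmem119, Cx3cr1, Csf1r and Aif1) summed to 126 to 143 CPM in PBS mice and 141 to 244 CPM in LPS mice, with 4 of 5 higher and P2ry12 lower at both times. Endothelial markers (Cldn5, Pecam1, Cdh5, Flt1, Tie1 and Slco1a4) summed to 145 to 148 CPM at ZT1 and 100.5 to 122 CPM at ZT13 in PBS mice, and to 173 to 241 and 233 to 259 CPM after LPS. Of these, 5 of 6 rose at either time (4 at ZT13 with median-of-ratios scaling), and Flt1 fell at ZT1. The interaction test called 4 of 6, against 0.159% of all genes tested and none of the class I genes. Of the T and NK cell markers only Gzma was tested, at 0 CPM in the 6 PBS mice and 0.134 to 2.88 CPM in the LPS mice, which alone brought it into the test. Astrocyte markers went both ways (3 of 5 higher at each time, 1 lower at ZT13). Of the oligodendrocyte markers 1 of 4 was lower at ZT1 and 3 of 4 at ZT13, or 1 and 4 with median-of-ratios scaling. Of the neuronal markers 0 of 6 was called at ZT1 and 3 of 6 were lower at ZT13, or 0 and 6 with that scaling, and none passed the interaction test. How much of the class I RNA came from each of these cell types was not tested.

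Other genes of the pathway were grouped in lists by function, and each count is to be read against the 11.1% of all genes called higher at ZT1 and the 19.2% at ZT13. Of 11 genes for peptide trimming and loading, 4 were called higher at ZT1 and 5 at ZT13, and none lower. With median-of-ratios scaling these counts were 3 and 4 higher, and Npepps was called lower at ZT13 (−0.20). Erap1, which trims peptides in the endoplasmic reticulum, rose by 0.85 (SE 0.15) and 1.05 (SE 0.13), and Tapbpl, a tapasin relative that edits peptides, by 0.41 (SE 0.08) and 0.58 (SE 0.09). Pdia3, the partner of tapasin in the loading complex, rose at ZT13 (0.35, SE 0.04) and was 0.20 higher at ZT1 without passing the test. The general chaperone Canx differed by 0.02 and −0.01 and Calr by −0.09 and 0.15, and neither passed the test. The list median was 0.15 at both times.

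Of 22 other class I and class I-like genes, 13 were tested, and 8 rose at ZT1 and 10 at ZT13 (8 and 9 with median-of-ratios scaling). H2-Q5, H2-Q6, H2-Q7 and H2-Bl were under 1 CPM in all PBS mice and entered the test through the LPS mice, and they make up 3 of the 8 and 4 of the 10. H2-Q4, a nonclassical heavy chain, rose by 3.58 (SE 0.21) and 4.14 (SE 0.24), from a mean of 2.37 to 35.3 CPM at ZT1 and from 1.93 to 44.8 CPM at ZT13. H2-Q7 rose by 2.57 and 3.38 and H2-Q6 by 2.31 and 3.63, and H2-T23, which presents leader peptides to NK cells, by 1.69 and 2.34. H2-M3, whose promoter also held the spaced X2 and Y letters, rose by 0.80 (SE 0.17) and 1.003 (SE 0.14). The list median was 0.94 at ZT1, then 1.003 for ZT13. H2-Q6 and H2-Q7 share sequence with H2-K1, and H2-Q7 and H2-T23 with H2-D1, so reads there cannot be held fully apart.

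The standard proteasome moved little beside its inducible subunits. Of 14 core subunits 6 were called higher at ZT1 and 3 at ZT13, the largest being Psmb2 (0.34, SE 0.07) at ZT1 and Psma6 (0.25, SE 0.06) at ZT13. With median-of-ratios scaling these counts were 2 higher at ZT1, and 1 higher and 1 lower at ZT13. The 3 of 14 at ZT13 lie near the share of all genes. Of 9 proteasome activators and assembly factors, 3 rose at ZT1 and 4 at ZT13. Psme1 and Psme2, the subunits of the interferon-inducible PA28 cap, rose by 0.75 (SE 0.10) and 0.99 (SE 0.11) at ZT1 and by 0.98 (SE 0.11) and 0.99 (SE 0.13) at ZT13. Pomp, which assembles new proteasomes, was 0.11 higher at ZT1 without passing the test and 0.18 higher at ZT13 (SE 0.05, limma adjusted p = 0.0168), a call lost with median-of-ratios scaling (0.13, adjusted p = 0.0807).

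Of 17 transcription regulators of the class I promoters, 9 rose at ZT1 and 11 at ZT13, and none fell. Irf7 rose by 3.40 (SE 0.15) and 3.42 (SE 0.30), Irf9 by 1.10 and 1.39, Nfkb2 by 1.09 and 1.63 and Irf1 by 1.04 and 1.37. The factors that hold Nlrc5 at the promoter moved less. Rfx5 differed by 0.12 and 0.19, Rfxap by 0.06 and 0.02, Creb1 by −0.12 and −0.09, and Nfya, Nfyb and Nfyc by −0.09 to 0.17, none passing the test at either time, while Rfxank rose at ZT13 (0.41, SE 0.06) and was 0.14 higher at ZT1 without passing the test, and the interaction test called none of the regulators. Of 9 interferon receptors, their kinases and inhibitors, 4 rose at ZT1 and 6 at ZT13 (4 at each time with median-of-ratios scaling, without Jak2 and Tyk2 at ZT13), led by Socs3 (1.53 and 2.27), Ifngr1 (0.69 and 1.02) and Ifnar2 (0.53 and 0.64).

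MHC class II genes, which serve presentation to CD4 T cells, gave smaller values. Of 7 genes 1 rose at ZT1 (Cd74, 1.06, SE 0.18) and 4 at ZT13, where Cd74 rose by 1.43, H2-DMb1 by 1.20, H2-Ab1 by 0.76 and H2-Eb1 by 0.70. H2-DMb1 and H2-Eb1 reached 1 CPM in fewer than 3 PBS mice and entered the test through the LPS mice. Ciita, the class II transactivator and a relative of Nlrc5, differed by −0.14 (SE 0.15) at ZT1 and −0.06 (SE 0.11) at ZT13 and did not pass the test, at 4.64 to 5.68 CPM in the 4 group means. Of the 80 genes tested in the 7 lists, limma called 0 between the times of day in LPS mice, 0 in PBS mice and 0 in the interaction, while 8, 12 and 9 had an unadjusted p under 0.05 (10%, 15% and 11.2%), against 10.6%, 13.5% and 9.25% of all genes.

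The genes most like the class I group over the 16 mice, by Pearson's r with the mean of the 10 standardised genes, were H2-Q4 (r = 0.994), Fcgr4 (0.993), Zc3hav1 (0.993), Parp12 (0.992) and Oasl2 (0.991). These r values include the gap between LPS and PBS mice, and all genes of a mouse share its library. Fcgr4 is an activating Fc receptor of myeloid cells, which went from 0.0938 and 0.0435 CPM in ZT1 and ZT13 PBS mice to 4.62 and 7.22 CPM after LPS. With these low PBS values, Fcgr4 entered the test through the LPS mice. Zc3hav1, Parp12 and Oasl2 are antiviral genes induced by interferon, at 13.7, 17.1 and 29.0 CPM in ZT1 LPS mice and 15.98, 17.8 and 35.4 CPM in ZT13 LPS mice.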

How the data were processed

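Cortex total RNA was depleted of ribosomal RNA and sequenced for 16 mice. The authors deposited CPM, the share of a gene among all reads on genes scaled to a total of 1000000, in 1 table with a column for each mouse, and the submitters' processing notes name bcl2fastq, DRAGEN 4.0.3-8 and GRCm38. The table had 55774 lines, and 287 lines that repeat a gene were removed. Whole reads could not be recovered, because 80.7% to 82.8% of values up to 20 reads were whole multiples of the CPM of 1 read (tolerance 0.01 read), so no count model was used. Groups follow the titles. The treatment field contradicts 12 of the 16 titles and was used as an alternative.

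A gene was tested (18859) if 3 or more of the 16 mice reached 1 CPM. A pseudocount of 0.5 was added, and limma 3.58.1 (R 4.3.3) was fitted with an intensity trend to the 2 groups of each comparison, or to all 16 mice for the interaction, with Benjamini-Hochberg adjustment over all genes tested and a threshold of 0.05. SE and 95% intervals are those of the fit. Ratios were compared by two-sided exact permutation tests. The fit was tested on simulated data. The paper calls the mice littermates and does not say how litters or cages were spread over the groups, so p-values measure the spread between these mice. Residuals of mice with the same replicate number correlated from −0.20 to 0.33 over 20 pairs, so the numbers were not used as pairs. Of the gene identifiers 55141 are in GENCODE M21, which gave coordinates and exon lengths.

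The class I genes were listed by role with no measured value in the rule, but they, the gene lists and the tests were chosen with earlier results of these data known. Some genes of the regulator and marker lists are not reported here and were left out of the counts and sums. All 10 genes are named in every comparison, and from each list up to 3 of the largest changes and genes named for their role, while Canx, H2-M3 and Pomp were added after their values were seen. Alternatives were pseudocounts of 0.1 and 1, no filter, at least 5 CPM, median-of-ratios scaling, a single fit, sample quality weights, no trend, a replicate block, grouping by the treatment field, and omission of single mice. Python 3.11.15 with pandas 2.3.3, numpy 2.4.6, scipy 1.17.1 and matplotlib 3.10.9 was used.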

Additional observations from a re-analysis of the deposited data

Results flagged for a closer look

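Tap2 in ZT1 LPS mouse 1, at 20.8 CPM, stood apart from the other 4 mice of its group (17.5 to 18.4 CPM), as the gap to the next mouse was larger than Dixon's 95% critical value of 0.71 of the group's range. This was 1 of 20 sets of 5 mice examined, and chance flags about 1 in 20.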

How the results depend on the processing

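All 169 recomputed LPS against PBS values at ZT1 and all 169 at ZT13 kept their direction and stayed past the threshold, with adjusted p up to 0.0474 and 0.043 (both Psmb10 with no filter). At least 5 CPM in at least 3 mice left 9 of 10 genes called at each time, since Psmb9 was no longer tested. With the treatment field in place of the titles, 0 genes were called at ZT1 and 0 at ZT13, a grouping that mixes titles of both treatments. The replicate block gave 10, 10, 0, 0 and 0 genes called for LPS at ZT1, LPS at ZT13, time in LPS mice, time in PBS mice and the interaction, and it changed no call. In the time comparisons and the interaction no alternative called a gene. Leaving out single mice turned the sign of Psmb9 (−0.033 to 0.32) and Nlrc5 (−0.094 to 0.23) between the times in LPS mice, of H2-K1 (−0.19 to 0.079), B2m (−0.057 to 0.023), Tap1 (−0.15 to 0.034), Tap2 (−0.051 to 0.19) and Psmb10 (−0.098 to 0.026) in PBS mice, and of the Tap2 interaction (−0.021 to 0.25). The median time difference in LPS mice was 0.33 without ZT13 LPS mouse 5, 0.31 without ZT1 LPS mouse 1 and 0.09 without ZT13 LPS mouse 3. The log2 ratio difference of Psmb8 to Psmb5 at ZT1 was 3.21 and 2.64 with pseudocounts of 0.1 and 1, and that of Psmb9 to Psmb6 at ZT13 was 2.37 with 0.1. Depth limits Psmb9 and Nlrc5 in PBS mice, at 9 to 24 reads per mouse, which covers counting error only. The counts over all genes moved more. In LPS mice the 4 genes called between the times became 225 with sample quality weights, 122 in the single fit and 0 without the trend. The 30 of the interaction became 124 with the weights, 12 with no filter and 11 without the trend, and the 98 in PBS mice 43 in the single fit and 3 without the trend. At ZT1 the 2089 genes called higher after LPS became 1167 with no filter, and 1297 to 2464 when single mice were left out, where each of the 3 PBS mice brought the count to 1355 or less. At ZT13 the 3629 became 3022 with no filter, and 2947 to 3678.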
